A study of Mus musculus with 9 samples.

Results

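The genes described here encode the mTOR complexes and the TSC brake that controls them: Mtor, Rptor, Rictor, Mlst8, Rheb, Telo2, Akt1s1, Deptor, Tsc1 and Tsc2. They were taken by symbol from the deposited expression tables, in which they are 10 of 52025 listed genes. RNA was sequenced from Kunming mice on postnatal day (PD) 14, 15 and 16, the days around which the first fluid-filled cavities, or antra, open inside growing follicles (iFFA, the first formation of the antrum). There were 9 libraries, 3 for each day, without any treatment or engineered allele, so that the groups differed only in age as far as they are labelled. The labels give ovary as the tissue and granulosa cells as the source, whereas the study's methods describe RNA from ovaries. The labels do not tie a library to an animal, while the study describes the ovaries of a day as biologically independent. The p-values below measure the spread between the libraries of a day. The comparison between days asks whether transcripts of the mTOR machinery changed while the antrum formed.

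mTOR is a large serine/threonine kinase that works in separate assemblies. With Raptor (Rptor) it forms mTORC1, which drives protein synthesis and cell growth in response to nutrients and hormones, and with Rictor it forms mTORC2, which phosphorylates AKT and SGK kinases. The lysosomal GTPase Rheb switches mTORC1 on, and the tuberous sclerosis proteins TSC1 and TSC2 switch Rheb off. In the ovary, mTORC1 in granulosa cells and oocytes is known for its part in follicle activation and growth, and its activity is set largely by phosphorylation and localization, which transcript levels do not report.

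Expression was given as FPKM, a fragment count scaled by exon length and by the mapped depth of the library. Depth read back from the smallest values was 20.4 to 28.7 M fragments per library, and from 94.99% to 95.7% of those values were whole multiples of 1 fragment within a tolerance of 0.02. Each member was covered by an estimated 576 to 4063 fragments in a library. The counting error at a member's lowest library ran from 1.96% for Tsc2 to 4.17% for Telo2, and covers counting only. A gene was tested if its mean was above 1 FPKM on at least 1 day, which 15495 genes passed, all 10 members among them. Changes are differences of log2(FPKM + 1), which understates the change of low genes, tested with limma across all tested genes and called at a Benjamini-Hochberg adjusted p under 0.05.

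Of the mTOR machinery, the transcript of Telo2, the subunit that helps newly made mTOR to mature, was the only one called in a comparison of days, and that call rested on all 3 libraries of PD14 and of PD16. It rose from 3.48 ± 0.290 FPKM on PD14 to 5.15 ± 0.254 on PD16 (mean ± SD, n = 3), a ratio of 1.48. For the other 9 members no change passed the test, which does not show that they were equal on the 3 days, and their mean levels on PD16 lay between 0.872 (Deptor) and 1.12 (Rheb) times those on PD14. Between PD16 and PD14, 1 of 10 members was called, where 4.25% of all tested genes were called. Telo2 was also the 1 member called by voom, run on estimated fragments of 14686 genes, of which it called 6.08%. The median change of the members was 0.038 on the log2 scale and that of all tested genes 0.0093, and the median absolute change was 0.074 for the members and 0.12 for all tested genes.

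Between PD15 and PD14 limma called 0 of 10 members, as did voom, against backgrounds of 0.678% and 1.14% of genes. At an unadjusted p under 0.05 there was 1 member by limma, Telo2, and 1 by voom, where 14.7% and 15.3% of all genes lay under that limit. Between PD16 and PD15 both tools again called 0 members, where the backgrounds were 0.729% and 1.23%, and 0 members by limma and 1 by voom lay under the unadjusted limit, which 14.1% and 14.3% of genes passed. PD16 against PD14 left 2 members, Telo2 and Mlst8, under the unadjusted limit by limma, beside 22.8% of genes, and 1, Telo2, by voom, beside 23.4%. The F test over the 3 days called 0 members by limma and 1, Telo2, by voom, where the backgrounds were 3.03% and 4.98%. Unadjusted, the F test left 1 member under 0.05 by each tool, where 22.3% and 22.6% of genes passed.

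**Figure D1:**
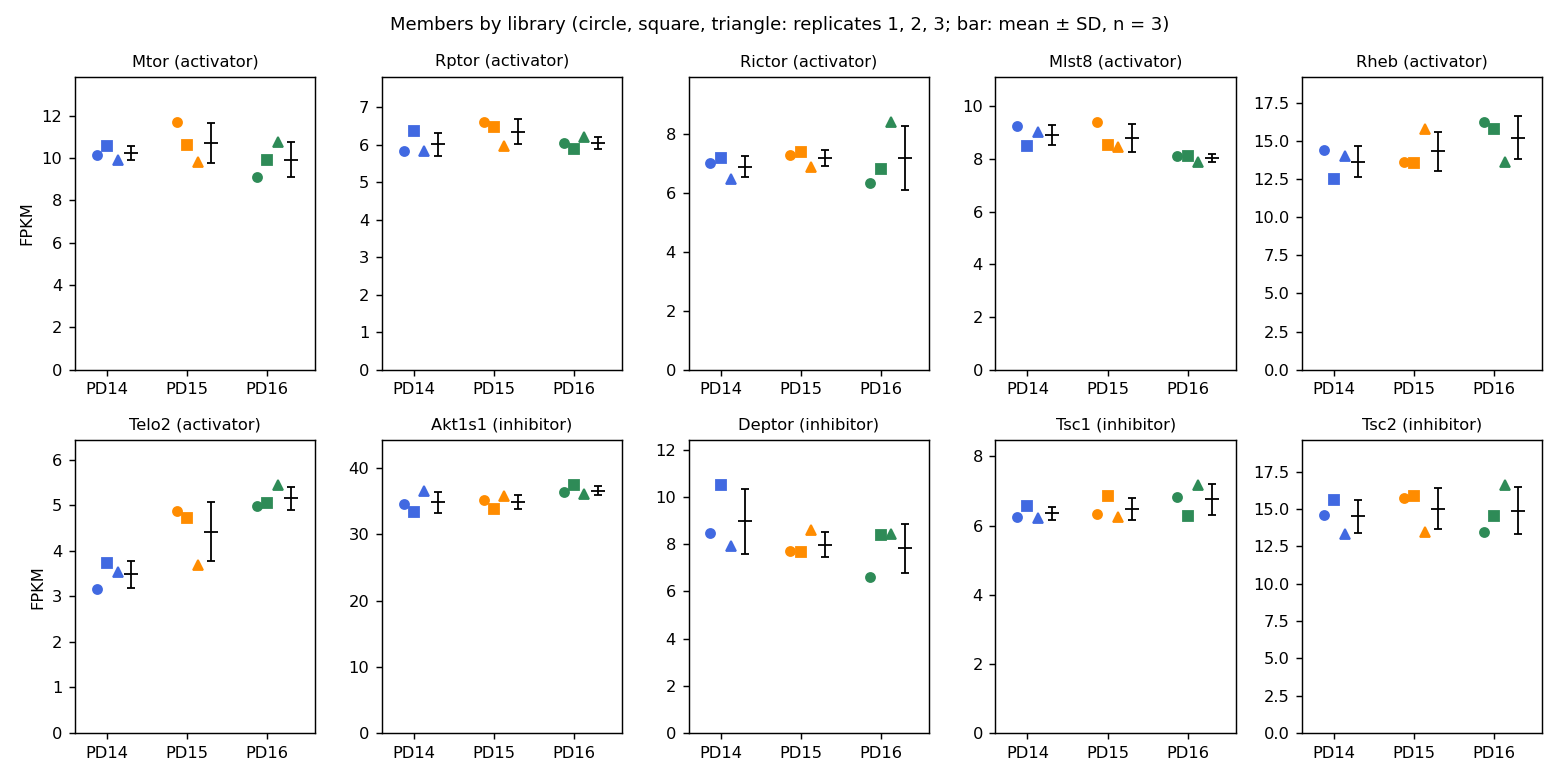
FPKM of each member (vertical axes, from 0) in the 3 libraries of each day (points, with the replicate given by the marker), with the mean and SD (n = 3) beside them. Telo2 lay at 3.17 to 3.74 on PD14 and at 4.97 to 5.44 on PD16, whereas the points of most other members overlapped between days.

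In order of their mean over the 9 libraries, the members stood at 35.5 FPKM for Akt1s1, 14.8 for Tsc2, 14.4 for Rheb, 10.3 for Mtor, 8.59 for Mlst8, 8.26 for Deptor, 7.08 for Rictor, 6.53 for Tsc1, 6.14 for Rptor and 4.35 for Telo2. Akt1s1 lay above every other member in all libraries. The ranges of Tsc2 and Rheb over the libraries overlapped, as did those of each pair of neighbours from Mtor down to Rptor, although Mtor lay above Mlst8 within every library. The range of Rheb lay wholly above that of Mtor, and that of Telo2 wholly below that of Rptor.

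Mtor, the kinase itself, is encoded at chr4:148448611-148557683 on the plus strand (GRCm38, GENCODE M21; 56 exon blocks). It measured 10.2, 10.6 and 9.93 FPKM on PD14, 11.7, 10.6 and 9.80 on PD15, and 9.09, 9.92 and 10.8 on PD16. The days overlapped, and the lowest and the highest of the later values bracketed the whole of PD14. The log2 change from PD14 to PD16 was -0.043, with a 95% interval of -0.22 to 0.13 and an adjusted p of 0.783 by limma.

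Rptor, which recruits the substrates of mTORC1 (chr11:119602905-119899576, plus strand), measured 5.83, 6.37 and 5.84 FPKM on PD14, 6.62, 6.47 and 5.98 on PD15, and 6.05, 5.89 and 6.21 on PD16. Its 9 values varied by 4.75% (coefficient of variation), and its change to PD16 was 0.0084 (interval -0.13 to 0.14; limma adjusted p = 0.949). Rictor, the scaffold of mTORC2 (chr15:6708379-6800401, plus strand), measured 7.00, 7.19 and 6.49 FPKM on PD14, 7.28, 7.37 and 6.89 on PD15, and 6.32, 6.81 and 8.41 on PD16. The lowest and the highest of these both came from PD16, and the change of 0.045 had an interval of -0.16 to 0.25 (limma adjusted p = 0.810). Rictor lay above Rptor in every library, by a ratio of FPKM of 1.05 to 1.36.

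Mlst8, the small WD40 subunit found in both complexes (chr17:24473551-24479078, minus strand), measured 9.24, 8.51 and 9.01 FPKM on PD14, 9.42, 8.54 and 8.45 on PD15, and 8.12, 8.11 and 7.88 on PD16. Every PD16 library lay below every library of the earlier days. The difference from PD14 was -0.13 (interval -0.26 to -0.0036), with an unadjusted p of 0.0451 and an adjusted p of 0.208 by limma, and so did not pass. Of the exon bases of Mlst8, 22.5% are shared with Bricd5 on the opposite strand, which was listed at 0 in all libraries. How the counting treated strand is not given in the sources used here.

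Rheb, the activating GTPase (chr5:24802823-24842624, minus strand), measured 14.4, 12.5 and 14.0 FPKM on PD14, 13.6, 13.6 and 15.8 on PD15, and 16.3, 15.8 and 13.6 on PD16. The means of the days were 13.7, 14.3 and 15.2 FPKM, but the libraries overlapped, and the change to PD16 was 0.15 (interval -0.051 to 0.34; limma adjusted p = 0.354).

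Telo2 encodes the lead subunit of the TTT complex, a co-chaperone that works with HSP90 to fold and stabilize mTOR and its relatives (chr17:25099570-25115967, minus strand; 16 exon blocks, none of whose bases are shared with another gene). It measured 3.17, 3.74 and 3.53 FPKM on PD14, 4.86, 4.72 and 3.68 on PD15, and 4.97, 5.04 and 5.44 on PD16. All PD16 libraries lay above all libraries of PD14 and PD15, while replicate 3 of PD15 sat among the PD14 values. From PD14 to PD16 the log2 change was 0.46 (interval 0.25 to 0.67), with an adjusted p of 0.0319 by limma. From PD14 to PD15 it was 0.27 (interval 0.057 to 0.48; limma adjusted p = 0.230), and from PD15 to PD16 0.19 (interval -0.024 to 0.40; limma adjusted p = 0.409). The F test gave an adjusted p of 0.0612 by limma. The call to PD16 was lost on leaving out any 1 of the 3 PD14 or 3 PD16 libraries, with limma adjusted p-values from 0.0502 without PD14 replicate 2 to 0.0993 without PD14 replicate 3, while the change stayed between 0.41 and 0.50. It was also lost without the filter on low genes (limma adjusted p = 0.0840).

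Telo2 stood at 0.312 to 0.356 of Mtor on PD14, 0.375 to 0.445 on PD15 and 0.506 to 0.547 on PD16, as a ratio of FPKM. The ratio did not overlap between any of the days, and is given without a test. Relative to its partner Tti1 the ratio was 0.229 to 0.286 on PD14, 0.277 to 0.333 on PD15 and 0.322 to 0.400 on PD16, where PD15 overlapped both other days. Relative to Tti2 it was 1.25 to 1.46, 1.28 to 1.70 and 1.72 to 1.98, where PD15 overlapped PD14. The genes whose pattern over the 9 libraries came closest to Telo2, among 9379 genes with a mean above 5 FPKM, were Ddhd1, Fam53a and Btbd3, with root mean square differences of 0.0565, 0.0660 and 0.0686 in centred log2(FPKM + 1), where the median gene stood at 0.235. Ddhd1 averaged 10.7, 13.2 and 14.3 FPKM on PD14, PD15 and PD16.

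**Figure D2:**
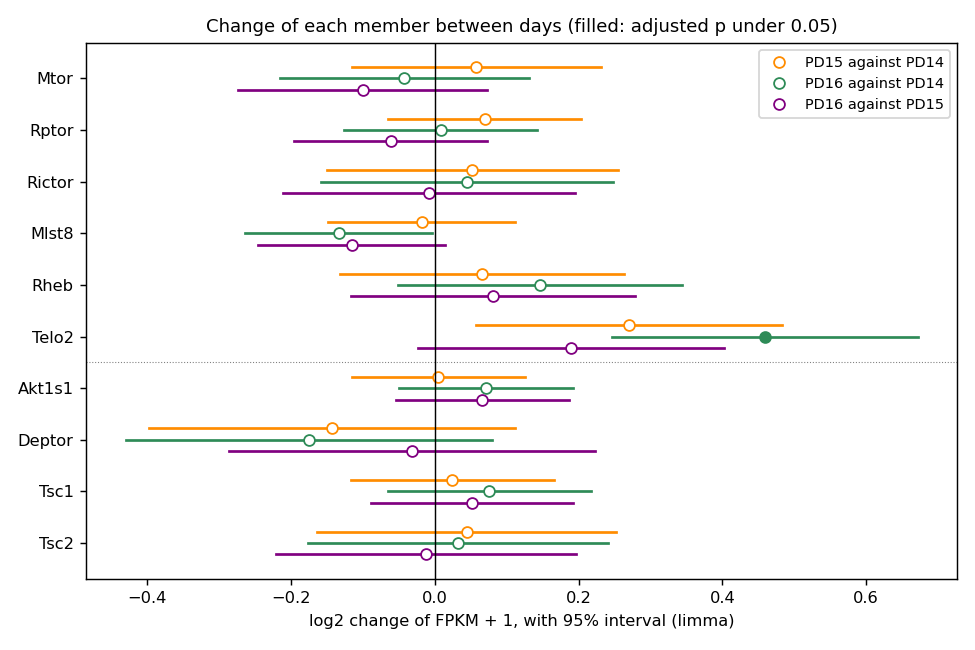
Difference of log2(FPKM + 1) between days for each member (horizontal axis, with 95% intervals from limma), activators above the dotted line and inhibitors below. The filled point marks the single call, Telo2 on PD16 against PD14 at 0.46, and the intervals of the inhibitors all include 0.

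Among the inhibitors, 0 of 4 were called in any comparison, by limma or voom, and 0 lay under an unadjusted p of 0.05. By limma, 0.678% to 4.25% of all tested genes were called and 14.1% to 22.8% lay under that limit, so that a count of 0 among 4 genes was near the background. Akt1s1 encodes PRAS40, an AKT substrate that blocks access of substrates to mTORC1 (chr7:44848991-44855421, plus strand). It measured 34.5, 33.4 and 36.5 FPKM on PD14, 35.2, 33.8 and 35.9 on PD15, and 36.3, 37.5 and 36.1 on PD16, and varied least of the members, by 3.80% over the 9 libraries. Of its exon bases, 5.27% are shared with other genes, among them Tbc1d17 on the opposite strand at 5.88 to 6.82 FPKM. The PD16 libraries lay above those of PD15, but not above those of PD14, and the change from PD14 was 0.072 (interval -0.049 to 0.19; limma adjusted p = 0.463).

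Deptor binds mTOR in both complexes and inhibits it (chr15:55112317-55259271, plus strand). It measured 8.49, 10.5 and 7.92 FPKM on PD14, 7.71, 7.66 and 8.60 on PD15, and 6.62, 8.40 and 8.46 on PD16. After Telo2 it was the member that varied most, by 12.7%, and its change of -0.17 to PD16 had the widest interval, from -0.43 to 0.080 (limma adjusted p = 0.394). Without PD14 replicate 2, the highest of the 9, the change to PD16 was -0.067 and that to PD15 was -0.035, against -0.14 with it. Without PD16 replicate 1, the lowest, the change to PD16 was -0.072.

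Tsc1, the stabilizing subunit of the TSC complex (chr2:28641228-28691167, plus strand), measured 6.26, 6.57 and 6.22 FPKM on PD14, 6.34, 6.85 and 6.24 on PD15, and 6.82, 6.28 and 7.17 on PD16. Its change to PD16 was 0.076 (interval -0.065 to 0.22; limma adjusted p = 0.504). Tsc2, the subunit that acts on Rheb (chr17:24595816-24632630, minus strand), measured 14.6, 15.6 and 13.4 FPKM on PD14, 15.7, 15.8 and 13.4 on PD15, and 13.5, 14.6 and 16.6 on PD16. The days overlapped, and the change was 0.032 (interval -0.18 to 0.24; limma adjusted p = 0.871). Tsc2 exceeded Tsc1 in all libraries, by a ratio of 1.98 to 2.48. Of the exon bases of Tsc2, 7.20% are shared with Pkd1, which lies on the opposite strand and measured 14.1 to 19.2 FPKM.

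Summed over the 6 activators, expression was 48.9 to 49.8 FPKM on PD14, 50.6 to 53.5 on PD15 and 50.8 to 52.3 on PD16. The sums of PD15 and PD16 overlapped and both lay above PD14. That separation rested on Telo2, the called member, and equally on Rheb, which was not called. Without either of them, the activator sums of the days overlapped. No test was run on the sums. Summed over the 4 inhibitors, of which Akt1s1 alone makes up most, expression was 63.9 to 66.1, 64.1 to 65.0 and 63.3 to 68.3 FPKM, so that the days overlapped. From PD14 to PD16 the change was positive for 4 of 6 activators and 3 of 4 inhibitors, and the medians were 0.027 and 0.052. With each library's trend with length taken off, the change was positive for 2 of 6 activators and 2 of 4 inhibitors. The members that turned, Rptor, Rictor and Tsc2, had changes near 0 and also turned sign on leaving out single libraries.

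Counted by libraries that did not overlap, 0 members separated PD15 from PD14, where 20.6% of tested genes did. PD16 separated from PD14 for 2 members (Telo2 above and Mlst8 below), beside 28.5% of genes. PD16 separated from PD15 for 3 members (Telo2 and Akt1s1 above, Mlst8 below), beside 19.6% of genes. The counts against PD14 moved with single libraries. Without PD15 replicate 3, 6 members separated PD15 from PD14, beside 34% of tested genes, and without PD14 replicate 2 there were 2, beside 31.3%. Without PD14 replicate 2, PD14 replicate 3 or PD16 replicate 3, 4 members separated PD16 from PD14, where 40.9%, 36.3% and 41.8% of tested genes did. The count for PD16 against PD15 was 3 or 4 on leaving out any library of those days, beside 26.9% to 33.9% of tested genes.

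The members also differed between libraries of the same day. Replicate 2 of PD14 and replicate 3 of PD16 each held the highest value of their day for 7 members, Mtor, Rptor, Rictor, Telo2, Deptor, Tsc1 and Tsc2, and the lowest for the other 3, Mlst8, Rheb and Akt1s1. Replicate 3 of PD15 was the reverse for most, holding the lowest value for 7 members, Mtor, Rptor, Rictor, Mlst8, Telo2, Tsc1 and Tsc2. In replicate 3 of PD14, 5 members were at their lowest for the day, among them Mtor, Rictor, Tsc1 and Tsc2. The libraries also differed by gene length. Genes with at least 6266 exon bases, as 8 members have, stood above genes with at most 2039 bases by a median of 0.11 on the log2 scale in replicate 3 of PD16 and 0.036 in replicate 2 of PD14, while the difference was -0.12 in replicate 3 of PD14 and -0.083 in replicate 3 of PD15. It was 0.032 and 0.039 in replicates 1 and 2 of PD15, which held the highest value of the day for 4 and 3 members, and lay between -0.016 and 0.018 in the other libraries. Not all of these 8 members followed their length: Rheb was at its lowest in replicate 2 of PD14 and replicate 3 of PD16 and at its highest in replicate 3 of PD15, where Deptor was also at its highest. After each library's trend with length was taken off, an alternative chosen after seeing the data, the change of Telo2 from PD14 to PD16 was 0.42 with a limma adjusted p of 0.0308. The changes of Rptor (-0.047), Rictor (-0.022) and Tsc2 (-0.011) from PD14 to PD16 and of Tsc1 from PD14 to PD15 (-0.0083) then changed sign, none of them called.

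**Figure D3:**
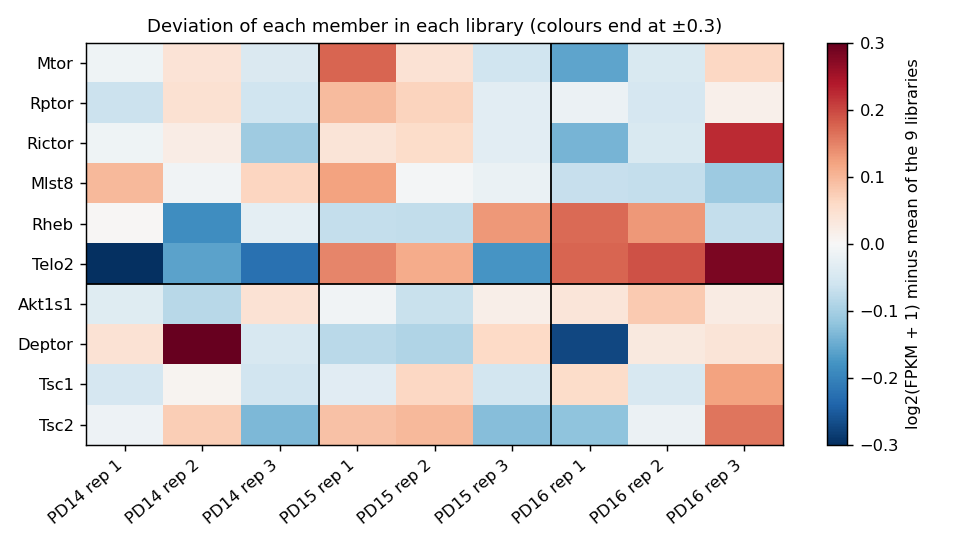
Deviation of log2(FPKM + 1) of each member (rows, activators above the line) from its own mean over the 9 libraries (columns by day), with red above and blue below and the colours ending at 0.3 in either direction. Telo2 runs from blue on PD14 (-0.35 in replicate 1) to red on PD16 (0.28 in replicate 3), while Mtor, Rictor and Tsc2 follow single libraries.

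Sequence around the transcription start is shown for the kinase and for the member that was called, from RefSeq (GRCm38.p6). A window of 250 bases before and 50 bases after the start was used for 9 of the members, and that of Deptor was not analysed here. Capitals mark CCAAT or its reverse complement ATTGG, the box bound by the NF-Y factor, searched on both strands. The Mtor window is chr4:148448332-148448631 on the plus strand and the Telo2 window, the first of 2 overlapping windows listed for that gene, chr17:25115918-25116217 on the minus strand.
Mtor: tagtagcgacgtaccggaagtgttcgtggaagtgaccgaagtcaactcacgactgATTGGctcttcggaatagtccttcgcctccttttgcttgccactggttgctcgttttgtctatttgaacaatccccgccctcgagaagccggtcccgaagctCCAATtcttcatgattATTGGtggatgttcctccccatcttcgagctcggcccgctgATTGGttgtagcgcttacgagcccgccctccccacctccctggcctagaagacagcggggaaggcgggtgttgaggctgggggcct
Telo2: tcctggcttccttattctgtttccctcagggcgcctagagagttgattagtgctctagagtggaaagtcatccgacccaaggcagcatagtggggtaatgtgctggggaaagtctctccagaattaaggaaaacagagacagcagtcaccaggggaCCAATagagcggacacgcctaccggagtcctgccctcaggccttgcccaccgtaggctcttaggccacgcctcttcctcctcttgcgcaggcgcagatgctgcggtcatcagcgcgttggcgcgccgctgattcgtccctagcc
The motif occurred 4 times in the Mtor window, beginning at positions -195, -93, -77 and -36 from the start, and 1 time in that of Telo2, at -94. In all, 3 of the 9 members with a window held it (Rictor also), where 37.4% of 32851 windows of the same length did. The GC box GGGCGG, searched likewise, was held by 4 members (Mtor, Rictor, Rheb and Akt1s1) and by 35.7% of windows. The other motifs searched were CACGTG, held by 2 members (Rheb, and Telo2 in its second window only) and 7.15% of windows, and GGAAGT, held by 3 members (Mtor, Akt1s1 and Tsc2) and 23.8% of windows. A match is a run of letters and does not show that a factor was bound.

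Around the members, 72 further genes of the pathway were followed, all of them matched and tested. Between PD16 and PD14, 3 of the 72 were called by limma, 1 higher and 2 lower, and 16 lay under an unadjusted p of 0.05, where 4.25% and 22.8% of all tested genes did, so that both shares were near those of all genes. The counts for smaller groups of these genes stand beside the same shares of all genes. Their median change was 0.022. With voom 6 were called, the same 3 and Ruvbl1, Atm and Atr, beside 6.08% of all genes tested by voom. Between PD15 and PD14 the call was for Rps6ka1 (1 of 72, beside 0.678% of all tested genes), and between PD16 and PD15 for Sgk1 (1 of 72, beside 0.729%). Sgk1, Ddit4 and Rps6ka1 were also the 3 called by the F test.

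Sgk1, a kinase activated by mTORC2 and a regulator of ion channels and pumps, rose. It measured 5.24, 5.12 and 4.48 FPKM on PD14, 6.56, 5.75 and 6.54 on PD15, and 9.48, 12.6 and 11.3 on PD16, with no overlap between the days. The change from PD14 to PD16 was 1.02 (interval 0.80 to 1.24; limma adjusted p = 0.00419) and that from PD15 to PD16 0.73 (interval 0.50 to 0.95; limma adjusted p = 0.0223). The latter call was lost without PD15 replicate 1 (limma adjusted p = 0.0817), without PD15 replicate 2 and without PD16 replicate 3, and also without the filter (limma adjusted p = 0.0757). Sgk1 was the 1 call among 14 downstream targets in both comparisons, beside 4.25% and 0.729% of all tested genes. Rps6kb2, an S6 kinase and the target with the next largest change, ranged from 0.288 to 3.44 FPKM within the series, and its change of -0.27 had an interval of -1.22 to 0.68.

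Ddit4 encodes REDD1, a stress-induced activator of the TSC complex and so an inhibitor of mTORC1, and it fell. It measured 57.2, 48.9 and 53.8 FPKM on PD14, 39.3, 40.9 and 43.6 on PD15, and 33.3, 37.8 and 31.2 on PD16, again with no overlap between the days. Its change to PD16 was -0.63 (interval -0.82 to -0.44; limma adjusted p = 0.0103), while that to PD15, -0.36, had a limma adjusted p of 0.103. The calls of Sgk1 and Ddit4 on PD16 against PD14 held in all 9 fits that left out a library and in all 11 other alternatives. Rps6ka1, which encodes the kinase RSK1 that phosphorylates TSC2, fell already by PD15. It measured 9.55, 10.6 and 11.6 FPKM on PD14, 7.85, 7.29 and 7.54 on PD15, and 7.53, 8.49 and 7.87 on PD16. The changes were -0.43 to PD15 (limma adjusted p = 0.0418) and -0.37 to PD16 (limma adjusted p = 0.0307), and they held in 1 of 9 and 5 of 9 fits that left out a library. The call on PD15 held without PD14 replicate 1 and no other library, and that on PD16 was lost without PD14 replicate 2, PD14 replicate 3, PD16 replicate 1 or PD16 replicate 3. Both were also lost without the filter on low genes (limma adjusted p = 0.109 and 0.0754) and with only the days compared in the fit (0.0826 and 0.0636). Of the 12 genes acting on TSC, 2 were called between PD16 and PD14 by limma, beside 4.25% of all tested genes. The median change of the list was -0.042, and the list was not split by the direction in which its genes act on mTOR.

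**Figure D4:**
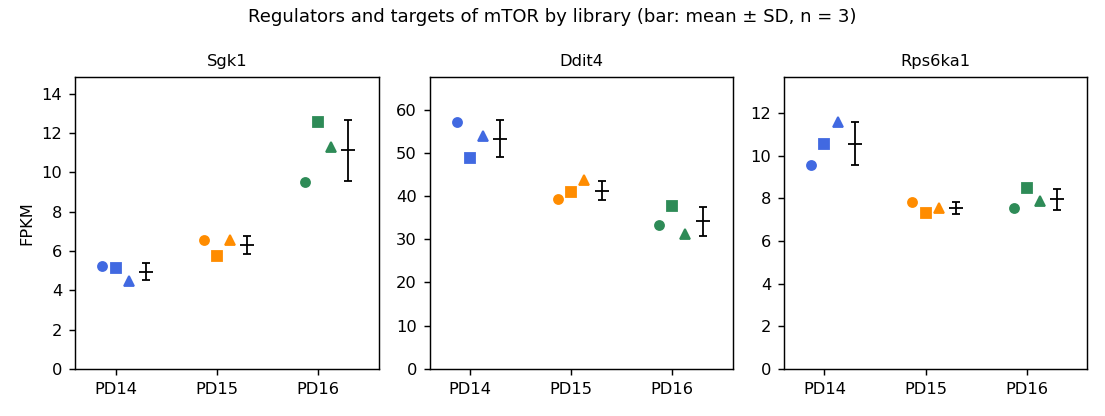
FPKM of Sgk1, Ddit4 and Rps6ka1 (vertical axes, from 0) in the 3 libraries of each day, with mean and SD (n = 3) beside them. Sgk1 stands at 9.48 to 12.6 on PD16 against 4.48 to 5.24 on PD14, Ddit4 at 31.2 to 37.8 against 48.9 to 57.2, and Rps6ka1 at 7.53 to 8.49 against 9.55 to 11.6.

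Of the 11 partners in the complexes of the members, 0 were called on PD16 against PD14 by limma and 1 (Ruvbl1) by voom, and 2 lay by limma under an unadjusted p of 0.05. Of all genes tested, limma called 4.25% and voom 6.08%, and 22.8% lay by limma under the unadjusted limit. For mTORC2, Mapkap1 (SIN1) averaged 18.5, 19.6 and 20.8 FPKM on the 3 days (change to PD16 0.16; limma adjusted p = 0.229), Prr5 13.8, 12.7 and 12.6 (-0.12; 0.291) and Prr5l 1.92, 2.05 and 1.99 (0.03; 0.895). Tbc1d7, the further subunit of the TSC complex, averaged 10.1, 9.54 and 8.94 FPKM (-0.15; limma adjusted p = 0.253). Rhebl1, a relative of Rheb, averaged 5.70, 5.18 and 4.90 FPKM (-0.18; limma adjusted p = 0.196). None of these passed the test.

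Telo2 acts together with Tti1 and Tti2, and the complex hands its clients to HSP90 through an assembly containing the ATPases Ruvbl1 and Ruvbl2. Tti1 measured 13.8, 13.1 and 13.1 FPKM on PD14, 14.6, 14.7 and 13.3 on PD15, and 15.4, 15.1 and 13.6 on PD16, a change of 0.13 to PD16 (limma adjusted p = 0.254). Tti2 stayed between 2.36 and 3.05 FPKM (change 0.10; limma adjusted p = 0.502). Ruvbl1 measured 32.9, 37.4 and 32.4 FPKM on PD14, 46.3, 42.5 and 45.1 on PD15, and 45.3, 45.1 and 39.1 on PD16. The later days lay above PD14 in all libraries, but the change of 0.33 to PD16 did not pass (limma adjusted p = 0.0507), nor did that of 0.37 to PD15 (limma adjusted p = 0.0769). Both passed with voom (adjusted p = 0.0350 and 0.0475), and the former was also called by limma after removal of the length trend, above 5 FPKM, without PD14 replicate 2 and without PD16 replicate 3.

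The other genes of the mTOR kinase family, whose proteins depend on TELO2 as well, were 5. Of these, 0 were called on PD16 against PD14 by limma and 2 (Atm and Atr) by voom, beside 4.25% and 6.08% of all genes. Atm was also called by limma without PD14 replicate 2. By limma 3 lay under an unadjusted p of 0.05, beside 22.8% of all tested genes. Their changes were positive for all 5, but for 4 of 5 once the length trend was removed, and the median fell from 0.22 to 0.14 with that step. Atm, the DNA break kinase, measured 4.47, 5.12 and 4.03 FPKM on PD14, 5.40, 5.15 and 5.63 on PD15, and 5.91, 5.73 and 5.92 on PD16, a change of 0.31 (limma adjusted p = 0.0524). Atr, the replication stress kinase, averaged 2.90, 3.38 and 3.57 FPKM, a change of 0.23 (limma adjusted p = 0.0799). The change of Mtor over the same days was -0.043, and the difference between Mtor and these genes was not tested.

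**Figure D5:**
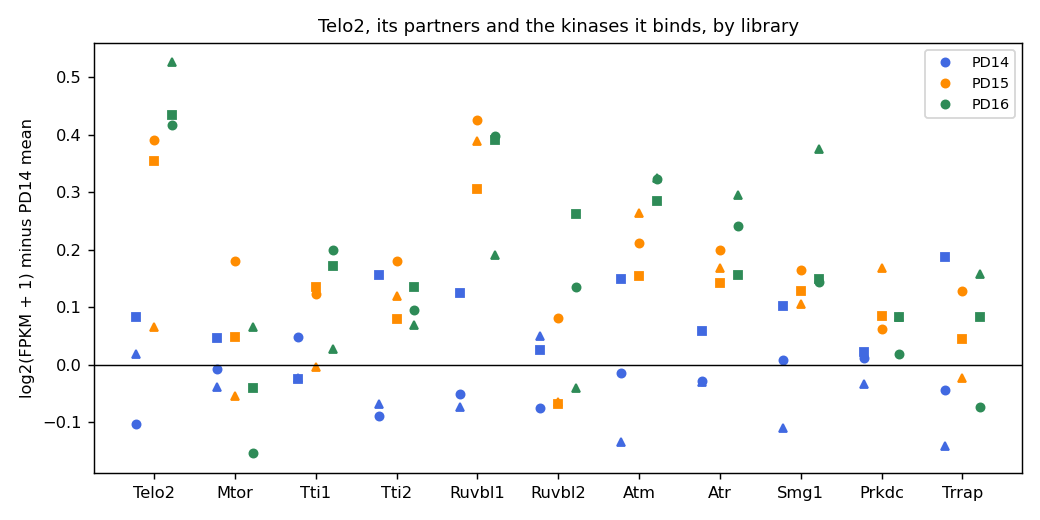
Difference of log2(FPKM + 1) in each library from the PD14 mean (vertical axis) for Telo2, Mtor, the partners of Telo2 and the other genes of the mTOR kinase family (colour by day, marker by replicate). On PD16 the points of most genes drawn, Telo2, Tti1, Tti2, Ruvbl1, Atm, Atr, Smg1 and Prkdc, all lie above 0, whereas those of Mtor, Ruvbl2 and Trrap fall on both sides of it.

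The nutrient-sensing branches gave 0 calls among 18 activating and 0 among 12 inhibiting genes on PD16 against PD14 by limma and by voom, with 4 and 0 under an unadjusted p of 0.05. Of all genes tested, limma called 4.25% and voom 6.08%, and 22.8% and 23.4% lay under the unadjusted limit. In the activating branch the largest changes were those of Wdr59, a GATOR2 subunit (16.0, 17.0 and 19.2 FPKM; 0.25, limma adjusted p = 0.150), and Lamtor1, the lysosomal anchor of Ragulator (21.8, 19.7 and 18.6 FPKM; -0.22, limma adjusted p = 0.0875). In the inhibiting branch they were those of Castor1, the arginine sensor (5.24, 5.15 and 4.49 FPKM; -0.20, limma adjusted p = 0.314), and Kptn, a KICSTOR subunit (5.53, 4.98 and 4.84 FPKM; -0.16, limma adjusted p = 0.221).

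Markers of ovarian cell types differed between the days as well. In bulk RNA, fewer cells of a type and less RNA per cell cannot be told apart. The 6 oocyte markers summed to 683 to 841 FPKM on PD14, 895 to 955 on PD15 and 651 to 706 on PD16, with 0 called on PD16 against PD14 by limma, 1 by voom and 1 under an unadjusted p of 0.05 by limma. The shares of all genes for these counts were 4.25%, 6.08% and 22.8%. Among the oocyte markers, Nlrp5 was called higher on PD15 than on PD14 (0.76, limma adjusted p = 0.0377) and lower on PD16 than on PD15 (-0.72, limma adjusted p = 0.0439). The 6 granulosa markers summed to 2485 to 3081, 2321 to 2723 and 2526 to 2968 FPKM, most of it from Inha alone. Of the granulosa markers, Amh was called higher and Cyp19a1 lower on PD16 against PD14. Theca markers summed to 95.5 to 100.1, 63.1 to 72.0 and 55.0 to 109 FPKM, stroma markers to 252 to 298, 197 to 260.4 and 249 to 264, endothelial markers to 45.2 to 48.8, 43.1 to 45.0 and 40.9 to 43.4, and blood and immune markers to 101 to 132, 45.2 to 60.7 and 59.2 to 112, with Hba-a1 called lower on PD15 than on PD14 (-1.35, limma adjusted p = 0.0381). Fat markers summed to 6.42 to 7.82, 4.43 to 5.01 and 4.05 to 5.77 FPKM, nearly all from Plin1, which was called lower. Oviduct markers summed to 0.715 to 1.31, 0.497 to 0.824 and 0.295 to 0.934 FPKM, each marker lying below the filter of 1 FPKM and so not tested. Pax8 and Foxj1 were lower in every library of PD15 and PD16 than in those of PD14, whereas Ovgp1 overlapped. Ptprc and Adipoq were near 0. Germ cell, theca and stroma transcripts were thus present beside the granulosa cells of the label, and their part in the changes of Telo2, Sgk1, Ddit4 and Rps6ka1 was not tested.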

How the data were processed

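RNA from 9 libraries (3 each on PD14, PD15 and PD16) was prepared with the NEBNext Ultra kit, and sequencing was done by a service company. Per the submitters' processing notes, HISAT2 2.0.5 and mm10 were used; the counter and annotation are not given in the sources used here. The authors deposited FPKM values per gene, normalized to exon length and mapped fragments. Groups follow the labels' age. The members and gene lists were chosen with earlier results of these data known. FPKM was converted to log2(FPKM + 1), genes with a mean above 1 on at least 1 day were kept, and limma 3.58.1 in R 4.3.3 was fitted to all libraries with an intensity trend, with Benjamini-Hochberg adjustment over all tested genes; the same code was checked on simulated data. The text names all members, 7 complex partners, each called pathway gene, the 2 pathway genes per list with the largest change from PD14 to PD16, and the 3 genes most like each called member. Alternatives were pseudocounts of 0.1 and 5, no filter, a mean above 5, median-ratio scaling, no trend, robust moderation, the replicate block, only the 2 days compared, leaving out each library, and, after seeing the data, voom on fragments estimated from GENCODE M21 lengths and removal of the length trend. Of the listed genes, 50376 were found in GENCODE M21. Figures were drawn with Matplotlib 3.10.9.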

Additional observations from a re-analysis of the deposited data

How the results depend on the processing

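No member was called on PD15 against PD14 or PD16 against PD15 under any alternative. The 1 member called on PD16 against PD14 (Telo2) became 0 without the filter and 0 under the replicate block (limma adjusted p = 0.0725), and 0 to 1 on leaving out a library; its adjusted p ran from 0.0199 to 0.0993 over the libraries left out, and was 0.0152 with voom. Over the 3 days the count was 1 with voom, and 0 to 1 without a library. Pathway calls on PD15 against PD14 (1) became 0 without the filter, without the trend, under the replicate block and with only the 2 days compared, 2 with voom, and 0 to 1 without a library. Those on PD16 against PD14 (3) became 2 without the filter, under the replicate block and with only the 2 days compared, each losing Rps6ka1, 4 above 5 FPKM and with the length trend removed, each gaining Ruvbl1, 6 with voom, and 2 to 4 without a library, and the call of Sgk1 on PD16 against PD15 (1) became 0 without the filter, 0 under the replicate block and 0 to 1 without a library. Members that did not overlap numbered 0 to 6 (PD15 against PD14) and 2 to 4 (PD16 against PD14) without a library. The cause was not tested. Uncalled changes that turned sign on leaving out a library ran, from PD14 to PD15, from -0.0036 to 0.11 (Mtor), -0.063 to 0.0076 (Mlst8), -0.0017 to 0.10 (Rheb), -0.023 to 0.040 (Akt1s1), -0.011 to 0.047 (Tsc1) and -0.010 to 0.12 (Tsc2); from PD14 to PD16, from -0.10 to 0.013 (Mtor), -0.011 to 0.045 (Rptor), -0.061 to 0.12 (Rictor) and -0.045 to 0.096 (Tsc2); and from PD15 to PD16, from -0.11 to 0.068 (Rictor), -0.085 to 0.071 (Deptor) and -0.089 to 0.052 (Tsc2). With the length trend removed, Rptor (-0.047), Rictor (-0.022) and Tsc2 (-0.011) from PD14 to PD16 and Tsc1 from PD14 to PD15 (-0.0083) also turned. Over all genes, the 105, 659 and 113 calls on PD15 against PD14, PD16 against PD14 and PD16 against PD15 and the 469 by the F test became 29, 172, 24 and 95 without the filter and 24, 227, 56 and 127 under the replicate block. Calls became 46 on PD15 against PD14 and 323 on PD16 against PD14 with only those days, and 63 on PD15 against PD14 above 5 FPKM. With voom they were 168, 893, 181 and 731. On leaving out a library, the lowest counts were 3 (without PD15 replicate 1), 92 (PD16 replicate 1), 14 (PD15 replicate 1) and 100 (PD14 replicate 3). The deviations of same-numbered libraries correlated above 0.1 in 2 of 9 pairs (correlations -0.21 to 0.16), so the numbers were not taken to pair them. With 3 libraries a day, a change whose printed interval includes 0 cannot be told from none.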
